A study of Mus musculus with 9 samples.

Results

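The genes of mitochondrial protein import, the mitochondrial chaperones and the mitochondrial proteases were examined in mouse CD8+ T cells. Members were taken by symbol: every Timm or Tomm gene with a number, plus 14 named genes for chaperones, the import motor and proteases. The rule matched 39 of 55421 genes, and 36 of these were among the 15711 genes with enough counts to be tested. The rule reads symbols and no measured values, though it was proposed with earlier results of these data known. RNA was depleted of ribosomal RNA and sequenced in 9 libraries of spleen T cells. Their donors were Pmel Ly5.1 mice, whose T-cell receptor is a transgene. For 2 groups the T cells spent 36 h with DM5, a single immortalised line of bone marrow stromal cells with DsRed-labelled mitochondria, and were sorted into DsRed+ cells (MitoPositive, 3 libraries) and DsRed- cells (MitoNegative, 3 libraries). The third group was T cells kept without stromal cells (monoculture, 3 libraries). The mice and the T-cell receptor were common to the 3 groups, and the letters B, C and D mark the replicates of a group. The sample titles also carry a time of 0 h that the labels do not explain. Nothing in the labels says that the letters are separate animals or cultures, so p-values measure the spread between these libraries, which may be technical.

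Most mitochondrial proteins are made in the cytosol and imported. Precursors are recognised and passed through the outer membrane by the TOM complex, small TIM chaperones escort membrane proteins across the intermembrane space, and the TIM22 and TIM23 complexes insert them into the inner membrane or pass them into the matrix, where a motor built on Hspa9 pulls them in. Chaperonins then fold them, and proteases of the matrix, inner membrane and intermembrane space remove damaged or surplus proteins. Activated T cells enlarge their mitochondria, which calls on this machinery.

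Total counts per library ran from 53546152 to 74722832. Replicates differed by more than counting noise in every group, at a chi-square of 18.3 to 64.3 for each degree of freedom. The CD8+ T cell markers Cd8a, Cd8b1, Cd3e, Cd3d, Cd3g, Ptprc, Lck and Trac summed to 7412 to 8263 CPM (counts scaled to the size of the library) in monoculture, 6685 to 6964 in MitoNegative and 6753 to 7128 in MitoPositive, so the labelled cell type was present in every library. Stromal markers (10 genes) summed to 0.623 to 1.03 CPM in monoculture, with Bgn, Col1a2, Col3a1, Dcn, Lum, Pdgfra and Sparc at 0 in all 3 libraries, to 10.5 to 28.7 in MitoNegative and to 10.3 to 27.4 in MitoPositive. The 5 B cell markers summed to 656 to 730 CPM in monoculture, 359 to 449 in MitoNegative and 273 to 300 in MitoPositive, and the 5 myeloid markers to 3.98 to 5.08, 4.83 to 8.36 and 6.01 to 7.16. The myeloid list was mixed. Cd68 had means of 2.72, 5.84 and 6.03 CPM in the same order of groups. Adgre1 (0.844, 0.139 and 0.0964) and Lyz2 (0.401, 0.101 and 0.0619) were lower in co-culture. Means of Csf1r were 0.138, 0.111 and 0.0922, and those of Itgam 0.369, 0.317 and 0.408. The CD4+ T cell and natural killer cell pairs did not exceed 3.74 and 0.778 CPM in any library. The CD8+ T cell, stromal and B cell sums of monoculture lay apart from those of both co-culture groups, and their part in the comparisons with monoculture was not tested. Cd8a did not follow its sum, with means of 1175 CPM in monoculture, 1270 in MitoNegative and 1202 in MitoPositive. The other CD8+ T cell markers had lower means in co-culture, among them Ptprc, the largest, at 2606, 2249 and 2351. Of the stromal markers, Pdgfrb overlapped between all groups, and Dcn and Lum did not exceed 3 counts in any library. In RNA from many cells, fewer cells of a type and less RNA per cell cannot be told apart.

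Promoter sequences are shown for a few genes whose windows hold a motif of the factors that are known to drive such genes. RefSeq starts on GRCm38.p6 gave windows of 300 bases (250 before the start, 50 after) for 32 of the 39 genes, 35 windows in all. Windows on a chromosome that was left out beforehand were not searched. A gene without a window here may therefore still have an annotated start. The chaperonin genes Hspd1 and Hspe1, whose products form the barrel and lid of one folding machine, lie head to head, and their windows share 285 bases. Within that shared stretch lies a run of 18 bases made of 3 overlapping matches to the heat shock element pair GAANNTTC or TTCNNGAA, at chr1:55088053-55088082 with its flanks, shown here once in the orientation of each gene. For Lonp1 and Tomm20, chosen for display after it was seen that both rose in co-culture, the 200 bases before the start (chr17:56626904-56627103 and chr8:126945922-126946121, both on the minus strand) each hold 1 E-box, CACGTG, at bases -36 and -126. Capitals mark the motif matches.
Hspe1: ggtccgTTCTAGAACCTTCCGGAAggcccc
Hspd1: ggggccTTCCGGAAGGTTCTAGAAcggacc
Lonp1: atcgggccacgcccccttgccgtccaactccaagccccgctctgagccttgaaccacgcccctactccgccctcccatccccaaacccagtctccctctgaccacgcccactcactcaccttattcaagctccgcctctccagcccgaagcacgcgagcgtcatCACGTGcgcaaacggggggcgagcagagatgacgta
Tomm20: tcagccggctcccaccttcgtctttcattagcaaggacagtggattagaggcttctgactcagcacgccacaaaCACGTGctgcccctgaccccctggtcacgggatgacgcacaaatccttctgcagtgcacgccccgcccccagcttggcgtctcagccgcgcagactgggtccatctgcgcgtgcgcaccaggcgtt
Across the 32851 mouse windows that were searched, on both strands, CACGTG was in 7.15%. It was in 7 of the 35 import, chaperone and protease windows (20%). These were the windows of Lonp1, Tomm20, Timm8a1, Hspd1, Timm9, Timm10 and Tomm20l. Of these genes, Hspd1, Timm9 and Timm10 passed in neither comparison with monoculture, and Tomm20l was too low to test. The windows of Clpp, Spg7, Timm17a, Timm44 and Timm50, which also rose in at least 1 comparison, held none. Hspa9, Afg3l2 and Htra2 rose too but had no window among the 35. GAANNTTC or TTCNNGAA was in 15.1% of the windows searched and in 9 of the 35 (25.7%). CGCATGCG, the core of the NRF-1 site, was in 1.87% of the windows searched and in 2 of the 35 (5.71%), those of Clpx and Timm13. A match is a description of letters in a window and was not tested as a site.

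Levels between genes were compared per length, as CPM per kb of exon. In monoculture Hspe1 stood highest at 91.6 ± 9.95 (SD, n = 3), followed by Hspd1 at 86.4 ± 6.08 and Tomm7, a small TOM subunit, at 81.4 ± 8.78. The SD ranges of these 3 overlapped. Below them came Tomm22 at 62.8 ± 4.98 and Hspa9 at 57.1 ± 3.84. The bottom of the order was Grpel2 at 2.96 ± 0.0409, Timm9 at 2.65 ± 0.282 and Timm10b at 0.869 ± 0.0532 CPM per kb. Summed over the 36 tested members, CPM was 2499 ± 96.9 in monoculture, 2637 ± 143 in MitoNegative and 2730 ± 114 in MitoPositive. In letter D monoculture was the highest, at 2605 beside 2476 in MitoNegative and 2602 in MitoPositive.

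**Figure D1:**
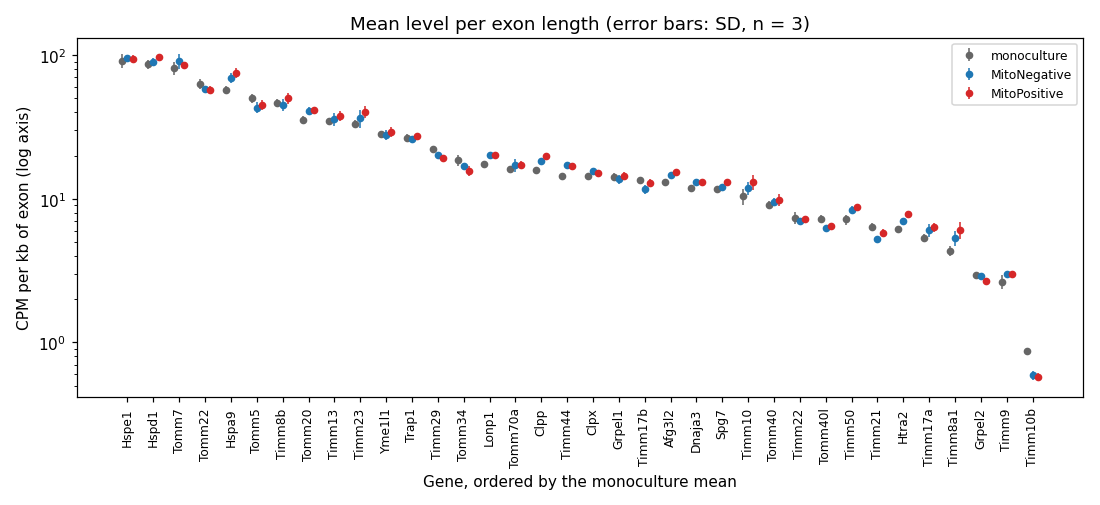
Mean level of each tested gene as CPM per kb of exon (log axis) in monoculture, MitoNegative and MitoPositive, with error bars of 1 SD over 3 libraries, ordered by monoculture. The range runs from 91.6 for Hspe1 down to 0.869 for Timm10b in monoculture, and the 3 groups lie close together for most genes.

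Of the members, 3 were too low to test. Tomm6, a small TOM subunit, had 0 to 10 counts per library; 75.95% of its exon bases are also annotated on the same strand to Gm21981, which had 0 to 2 counts. Timm8a2 had 0 to 10 counts. Tomm20l had 0 counts in 8 libraries and 2 in MitoNegative D, against a limit of 3 counts, or 0.0395 to 0.0560 CPM, that a count of 0 allows.

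The comparison of each co-culture group with monoculture asks how T cells differ after time with the stromal line, with and without detectable stromal mitochondria. Both use the same 3 monoculture libraries, so their values stand side by side and are not independent of each other. In edgeR's quasi-likelihood test with Benjamini-Hochberg adjustment over 15711 genes (threshold 0.05), 7 of 36 members were higher and 4 lower in MitoNegative than in monoculture. Among all genes 20.6% were higher and 18.3% lower. In MitoPositive against monoculture 11 members were higher and 3 lower, and among all genes 22.3% were higher and 19.9% lower. The share of members that rose is near the background in MitoNegative (7 of 36) and above it in MitoPositive (11 of 36), and the share that fell is below it in both. The changes were small. The median absolute log2 fold change of members was 0.150 in MitoNegative and 0.158 in MitoPositive, beside 0.268 and 0.288 over all genes, and the signed median was 0.06 and 0.11 beside 0.0093 and 0.0034. The MitoNegative median was 0.0252 without monoculture B, 0.123 without MitoNegative D and 0.115 without monoculture D, and the MitoPositive median ran from 0.0756 without MitoPositive C to 0.162 without monoculture D. Leaving out 1 library moved the counts too. Without MitoPositive C, 7 members were higher and 1 lower in MitoPositive, beside 2951 and 2533 of 16075 genes. Without monoculture B, 7 were higher, beside 3014 of 16088 genes. In both fits the share of members that rose came near that of all genes. In MitoNegative the higher count was 4 without MitoNegative B, beside 2867 of 16024 genes. It was 2 without monoculture B (2785 of 16088 genes) and 2 without MitoNegative C (2757 of 16003 genes). In each of these fits the share of members that rose was below that of all genes. The lower count was 2 without MitoNegative B (2211 genes), without MitoNegative C (2164 genes) or without monoculture D (2673 of 16073 genes). The 6 libraries of MitoNegative and monoculture alone, with the replicate letter as a block, gave 3 higher and 2 lower. Among all genes that fit called 2928 higher and 2644 lower of 15132. The members lost there were Afg3l2, Clpp, Lonp1, Tomm20, Timm17b and Tomm40l (adjusted p = 0.0525 to 0.101).

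**Figure D2:**
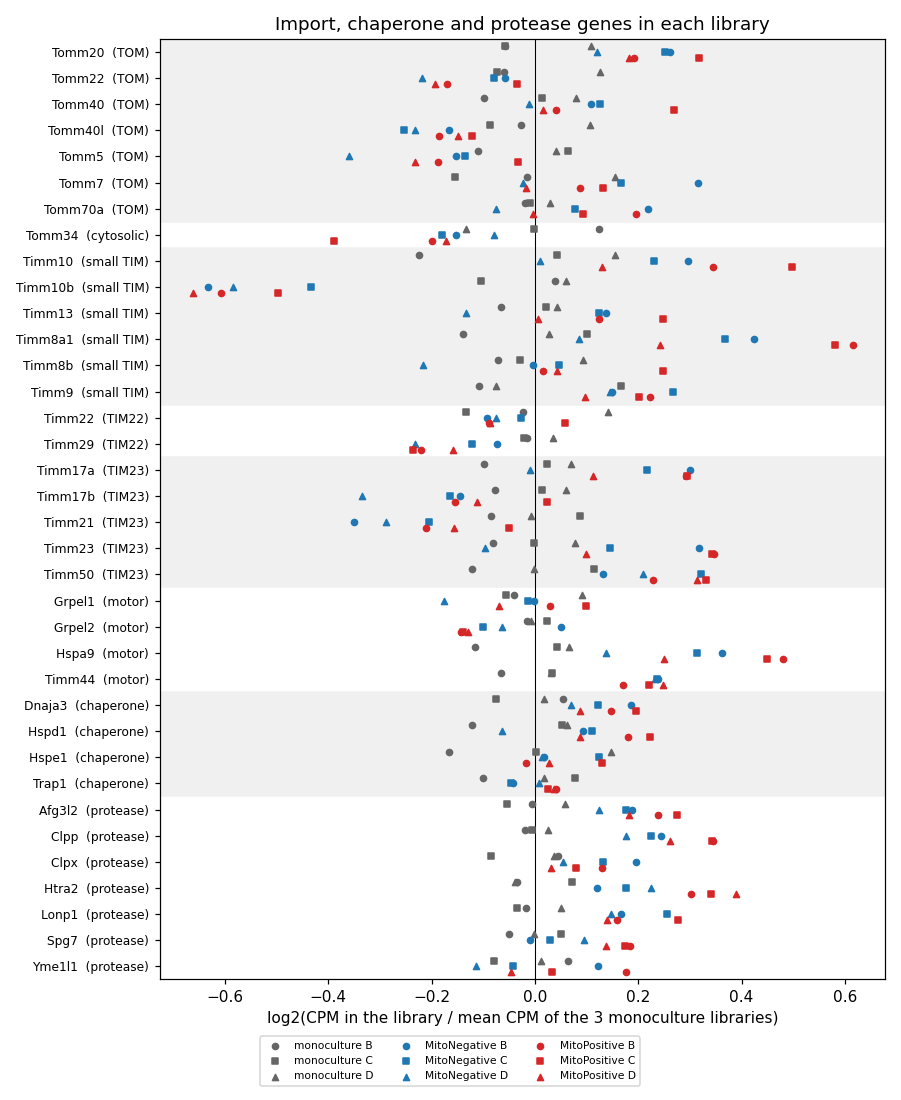
Each tested gene in each of the 9 libraries, as the log2 ratio of its CPM to the mean of the 3 monoculture libraries (grey: monoculture, blue: MitoNegative, red: MitoPositive; circle, square and triangle: B, C and D), grouped by role in shaded bands. Hspa9, Timm44, Clpp and Timm10b show all 6 co-culture libraries on one side of all 3 monoculture libraries.

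**Figure D3:**
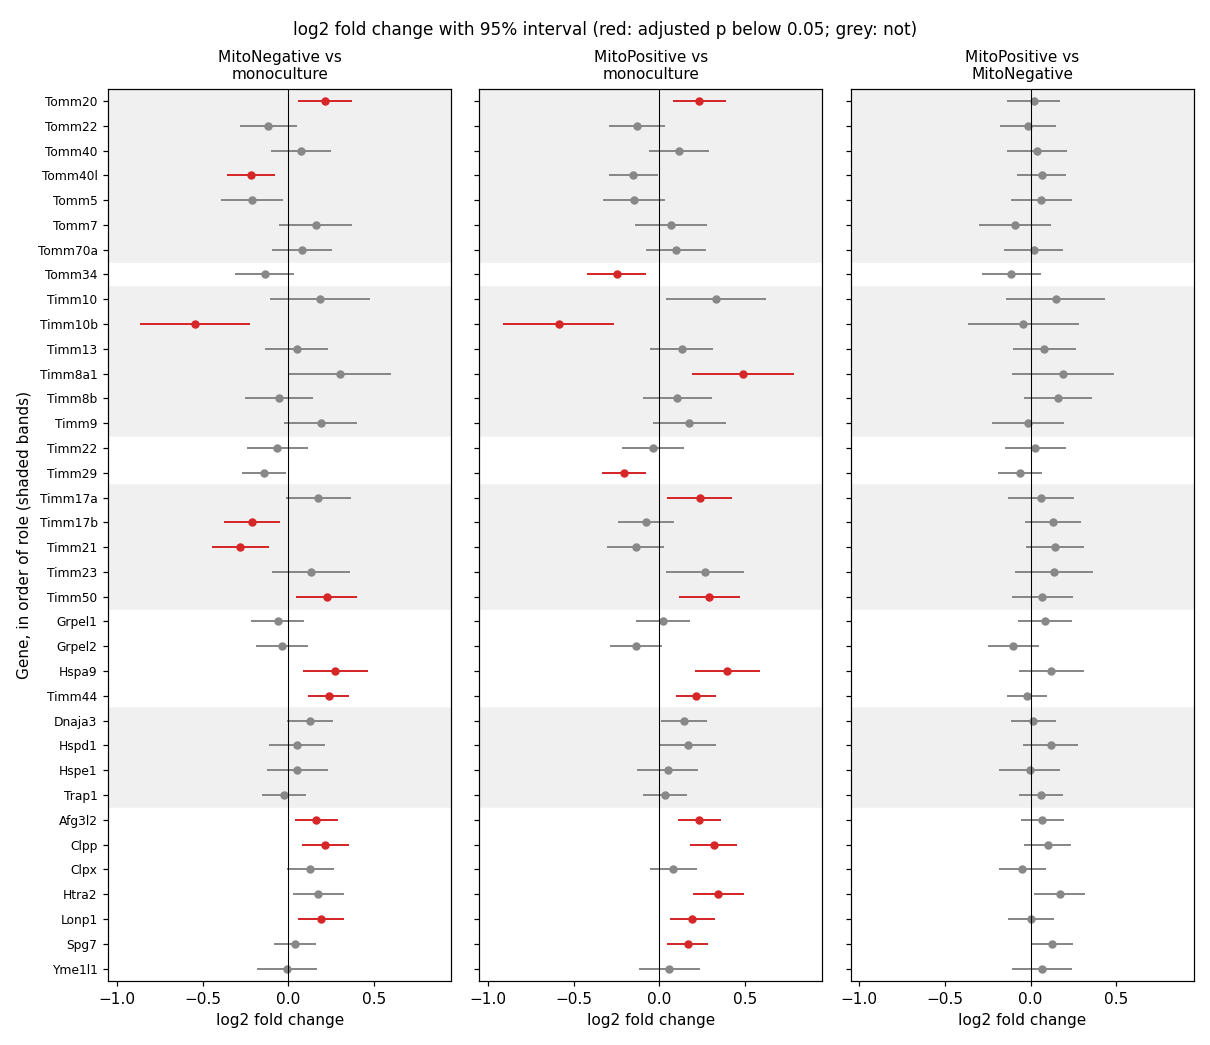
log2 fold change of each tested gene with its 95% interval in the 3 comparisons, in red where the adjusted p was below 0.05. Red marks appear for 11 genes in MitoNegative against monoculture, 14 in MitoPositive against monoculture and none in MitoPositive against MitoNegative.

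In the outer membrane, 7 of 9 TOM genes were tested. Tomm20, a receptor for precursors with a presequence, rose in both comparisons. In the order B, C and D, which holds for every gene from here on, Tomm20 was at 167, 167 and 188 CPM in monoculture, 209, 207 and 189 in MitoNegative and 199, 217 and 198 in MitoPositive. All 6 co-culture libraries were above all 3 monoculture libraries, by little in MitoNegative D. The log2 fold change was 0.21 ± 0.07 (SE; adjusted p = 0.0276) in MitoNegative and 0.23 ± 0.07 (adjusted p = 0.0171) in MitoPositive. The first call was lost without MitoNegative B (adjusted p = 0.074), monoculture B (0.0944), MitoNegative C (0.0809) or monoculture C (0.093), and the second without monoculture B (0.0645), MitoPositive C (0.0828) or monoculture C (0.063). Tomm40l, a paralogue of the channel protein Tomm40, fell in MitoNegative: it was at 36.5, 35.0 and 40.1 CPM in monoculture, 33.1, 31.2 and 31.7 in MitoNegative and 32.7, 34.2 and 33.5 in MitoPositive. Again the groups did not overlap, with monoculture highest. Its log2 fold change was -0.22 ± 0.06 (adjusted p = 0.0162) in MitoNegative, and -0.15 ± 0.06 in MitoPositive, which did not pass (adjusted p = 0.0698; 0.0358 without monoculture C). The MitoNegative call was lost without MitoNegative C (adjusted p = 0.0724) or monoculture D (0.0565), and 64.3% of the gene's exon bases lie opposite Nr1i3, which had 7 to 31 counts per library.

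The channel gene Tomm40 itself did not pass in either comparison. It stood at 38.3, 41.4 and 43.3 CPM in monoculture, 44.2, 44.7 and 40.7 in MitoNegative and 42.2, 49.4 and 41.5 in MitoPositive, with groups that overlap and log2 fold changes of 0.08 and 0.11. Tomm70a, the receptor for carrier precursors, was at 156, 157 and 161 CPM in monoculture, 184, 167 and 150 in MitoNegative and 181, 168 and 158 in MitoPositive (log2 fold changes 0.08 and 0.10, adjusted p = 0.455 and 0.339). Library D was lowest in both co-culture groups for this gene. The receptor Tomm22 and the small subunits Tomm5 and Tomm7 had log2 fold changes of -0.12, -0.21 and 0.16 in MitoNegative and -0.13, -0.15 and 0.07 in MitoPositive, none past the threshold. Tomm5 fell in MitoNegative once the replicate letter was entered as a block (-0.21 ± 0.07, adjusted p = 0.0247, against 0.0517 without it), and also without monoculture B (0.032) or MitoPositive C (0.0493). Tomm34, a cytosolic co-chaperone of import, fell in MitoPositive, from 61.5, 56.4 and 51.5 CPM in monoculture to 49.2, 43.2 and 50.2, with 50.8, 49.9 and 53.4 in MitoNegative. MitoPositive lay wholly below monoculture, while MitoNegative D was above monoculture D. The log2 fold change was -0.25 ± 0.08 (adjusted p = 0.0206) in MitoPositive and -0.14 ± 0.08 (adjusted p = 0.182) in MitoNegative, and the first was lost without monoculture B (adjusted p = 0.0842), without MitoPositive C (0.0915) or with total counts as the scale (0.0869).

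Of the small TIM chaperones 6 of 7 were tested, and the largest change of any member was there. Timm10b was at 3.20, 2.89 and 3.25 CPM in monoculture, 2.01, 2.31 and 2.07 in MitoNegative and 2.04, 2.20 and 1.97 in MitoPositive. Every co-culture library was below every monoculture library. It fell 1.46-fold in MitoNegative (log2 -0.55 ± 0.14, adjusted p = 0.0104) and 1.5-fold in MitoPositive (-0.59 ± 0.14, adjusted p = 0.00631), and kept its call in all 15 alternatives in both. It was also the lowest tested member, with 118 to 196 counts per library, and 22.1% of its exon bases overlap other genes, among them Arfip2 on the opposite strand. Timm8a1, the mouse counterpart of the gene mutated in deafness-dystonia syndrome, moved the other way. Its CPM was 5.60, 6.62 and 6.29 in monoculture, 8.28, 7.96 and 6.55 in MitoNegative and 9.45, 9.23 and 7.29 in MitoPositive. MitoPositive lay above monoculture in all 3 libraries, whereas MitoNegative D fell within the monoculture range. Timm8a1 rose 1.40-fold in MitoPositive (log2 0.49 ± 0.13, adjusted p = 0.0121; 0.052 without MitoPositive B), and its value in MitoNegative was 0.30 ± 0.13 (adjusted p = 0.1; 0.0474 without MitoNegative D). Timm8b, Timm9, Timm10 and Timm13, the other small chaperones, had log2 fold changes of -0.05, 0.19, 0.18 and 0.05 in MitoNegative and 0.10, 0.17, 0.33 and 0.13 in MitoPositive, and none passed. For Timm10, which forms a hexamer with Timm9, adjusted p was 0.0605 in MitoPositive, 0.0495 with the replicate block, 0.0412 in the 6 libraries with it, 0.0328 with total counts, 0.0395 with no count filter, 0.0312 without MitoPositive D and 0.0314 without monoculture D. Among the alternatives run, Timm9 passed only without monoculture C (adjusted p = 0.0386 in MitoNegative and 0.0438 in MitoPositive).

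In the carrier translocase TIM22, the subunit Timm29 fell in MitoPositive. It was at 69.9, 69.6 and 72.3 CPM in monoculture, 67.1, 64.9 and 60.1 in MitoNegative and 60.6, 59.9 and 63.3 in MitoPositive. Both co-culture groups lay below monoculture. The log2 fold change was -0.20 ± 0.06 (adjusted p = 0.0117; 0.0509 without MitoPositive C) in MitoPositive and -0.14 ± 0.06 (adjusted p = 0.0654) in MitoNegative. The channel gene Timm22 had -0.04 in MitoPositive and -0.06 in MitoNegative, neither past the threshold.

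The TIM23 complex, the route for presequence proteins, split by subunit. Timm50, the receptor that takes precursors from TOM, rose in both: 17.7, 20.9 and 19.3 CPM in monoculture, 21.1, 24.1 and 22.3 in MitoNegative and 22.6, 24.3 and 23.9 in MitoPositive. All 6 co-culture libraries were above monoculture, MitoNegative B by the least. Its log2 fold change was 0.22 ± 0.08 (adjusted p = 0.0417) in MitoNegative and 0.29 ± 0.08 (adjusted p = 0.0107) in MitoPositive. The MitoPositive call held in all 15 alternatives, but the MitoNegative call was lost in 9: under DESeq2 (adjusted p = 0.0543), with no count filter (0.0531), and without MitoPositive B (0.0515), monoculture B (0.146), MitoPositive C (0.0578), MitoNegative C (0.15), MitoPositive D (0.0556), MitoNegative D (0.0772) or monoculture D (0.0578). Timm21, which links TIM23 to TOM and to the respiratory chain, fell in MitoNegative. It was at 22.4, 25.2 and 23.6 CPM in monoculture, 18.6, 20.6 and 19.4 in MitoNegative and 20.5, 23.0 and 21.3 in MitoPositive. MitoNegative lay wholly below monoculture, and MitoPositive C was within the monoculture range. The log2 fold change was -0.28 ± 0.07 (adjusted p = 0.0104; 0.0556 without MitoNegative B) in MitoNegative and -0.14 ± 0.07 (adjusted p = 0.156) in MitoPositive. The pore gene Timm23 was at 56.3, 59.5 and 62.9 CPM in monoculture, 74.2, 65.8 and 55.7 in MitoNegative and 75.7, 75.5 and 63.8 in MitoPositive. MitoNegative D was the lowest library of the 9 for this gene. Its values of 0.13 ± 0.10 (adjusted p = 0.334) and 0.27 ± 0.10 (adjusted p = 0.0524) did not pass, though the latter did with the replicate block over 9 libraries (0.0361) or the 6 compared (0.0148), with total counts (0.0236), with no count filter (0.0328) and without MitoNegative B (0.0226), MitoPositive D (0.0215) or MitoNegative D (0.0202).

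Timm17a and Timm17b are alternative subunits of the TIM23 channel, and one rose while the other fell, each in a different comparison. Timm17a was at 39.6, 43.1 and 44.5 CPM in monoculture, 52.2, 49.3 and 42.1 in MitoNegative and 51.9, 52.0 and 45.8 in MitoPositive. It rose in MitoPositive (log2 0.24 ± 0.08, adjusted p = 0.0418) and was 0.17 ± 0.08 in MitoNegative (adjusted p = 0.125; 0.0243 without MitoNegative D). The MitoPositive call was lost without MitoPositive B (adjusted p = 0.125), monoculture B (0.143), MitoPositive C (0.127) or monoculture C (0.0781), and under DESeq2 (0.0527). Timm17b was at 32.9, 35.0 and 36.1 CPM in monoculture, 31.4, 30.9 and 27.5 in MitoNegative and 31.1, 35.2 and 32.1 in MitoPositive. It fell in MitoNegative (-0.21 ± 0.07, adjusted p = 0.0364) and was -0.08 ± 0.07 in MitoPositive (adjusted p = 0.405). That call was lost without MitoNegative B (adjusted p = 0.0505), MitoNegative C (0.0653), monoculture C (0.081), MitoNegative D (0.135) or monoculture D (0.107), and with no count filter (0.0556). Within a library the ratio of their CPM, which is not corrected for length, does not depend on how the library was scaled. That ratio was 1.20, 1.23 and 1.23 in monoculture, 1.66, 1.59 and 1.53 in MitoNegative and 1.67, 1.47 and 1.43 in MitoPositive. All 6 co-culture libraries stood above all 3 monoculture libraries, by 1.31-fold in MitoNegative and 1.24-fold in MitoPositive on average. With 3 libraries against 3 the exact two-sided permutation test can go no lower than p = 0.1, which both reached (adjusted p = 0.208 over 27 tests of 9 gene pairs).

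The same ratio was taken for the other pairs, with no test able to pass. Timm10 to Timm10b was 2.27, 3.02 and 2.91 in monoculture, 5.19, 4.31 and 4.11 in MitoNegative and 5.27, 5.43 and 4.72 in MitoPositive, again without overlap between monoculture and co-culture. Tomm40 to Tomm40l was 1.22-fold higher in MitoNegative and 1.20-fold higher in MitoPositive than in monoculture, and Timm8a1 to Timm8b was 1.28-fold and 1.3-fold higher, in each case with no overlap (exact permutation p = 0.1). For Grpel1 to Grpel2 and for Afg3l2 to Spg7 all groups overlapped. Hspd1 to Hspe1 was 1.74, 1.75 and 1.59 in monoculture, 1.78, 1.67 and 1.60 in MitoNegative and 1.94, 1.80 and 1.76 in MitoPositive. MitoPositive lay above monoculture without overlap, by little (exact permutation p = 0.1), and MitoNegative overlapped both.

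**Figure D4:**
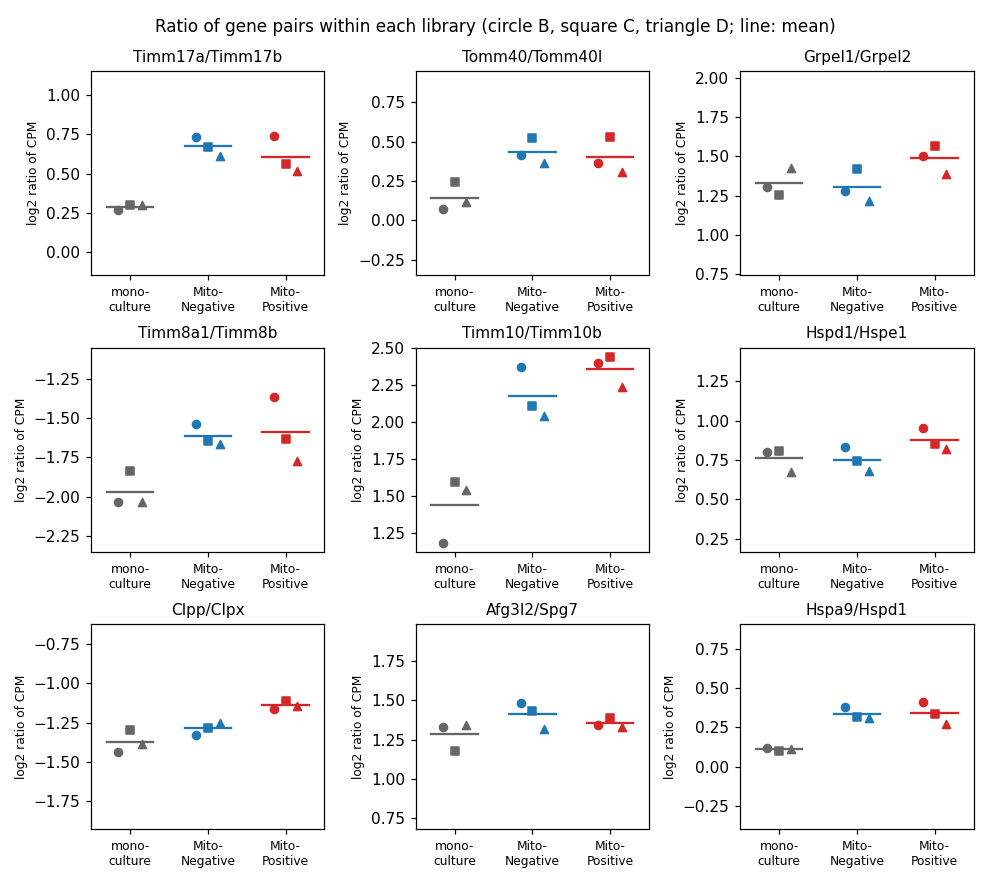
log2 ratio of CPM between the genes of 9 pairs in each library (circle B, square C, triangle D), with the group mean as a line. For Timm17a/Timm17b, Timm10/Timm10b and Hspa9/Hspd1 the 3 monoculture libraries lie below all 6 co-culture libraries.

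Of the 4 genes of the import motor, Hspa9 and Timm44 rose in both comparisons. Hspa9, the mitochondrial Hsp70 that pulls precursors into the matrix and helps fold them, was at 227, 253 and 258 CPM in monoculture, 316, 306 and 271 in MitoNegative and 343, 336 and 293 in MitoPositive. All 6 co-culture libraries exceeded all 3 monoculture libraries, with D the nearest. It rose 1.21-fold in MitoNegative (log2 0.27 ± 0.08, adjusted p = 0.0212) and 1.32-fold in MitoPositive (0.40 ± 0.08, adjusted p = 0.00243). The MitoPositive call held in all 15 alternatives, while the MitoNegative call was lost without MitoNegative B (adjusted p = 0.0683), monoculture B (0.0842) or MitoNegative C (0.0657). Timm44, which tethers Hspa9 to the TIM23 channel, was at 50.8, 54.4 and 54.3 CPM in monoculture, 62.7, 62.7 and 62.4 in MitoNegative and 59.9, 61.9 and 63.2 in MitoPositive. Its replicates were close and the groups were well apart. The log2 fold change was 0.24 ± 0.05 (adjusted p = 0.00347) and 0.21 ± 0.05 (adjusted p = 0.0054), and both calls held in all 15 alternatives. The nucleotide exchange factors Grpel1 and Grpel2, which reset Hspa9, did not pass, with log2 fold changes of -0.06 and -0.04 in MitoNegative and 0.02 and -0.14 in MitoPositive.

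Apart from Hspa9, counted here with the motor, the chaperones Hspd1, Hspe1, Trap1 and Dnaja3 did not pass in either comparison. Hspd1 was at 210, 237 and 238 CPM in monoculture, 243, 246 and 218 in MitoNegative and 258, 266 and 242 in MitoPositive. MitoPositive stood above monoculture in all 3 libraries, but MitoNegative D fell within the monoculture range. Its log2 fold change was 0.05 ± 0.07 (adjusted p = 0.639) and 0.16 ± 0.07 (adjusted p = 0.086), with 0.0251 in MitoPositive when total counts set the scale and 0.0469 without monoculture D. Hspe1 was at 120, 135 and 150 CPM in monoculture, 137, 147 and 136 in MitoNegative and 133, 148 and 138 in MitoPositive, with all groups overlapping and log2 fold changes of 0.05 in both. Annotated processed pseudogenes of Hspd1 and Hspe1, and 112 exon bases that the pair share on opposite strands, leave the assignment of their reads uncertain. Hspa9 to Hspd1 as a ratio of CPM was 1.08, 1.07 and 1.08 in monoculture, 1.3, 1.24 and 1.24 in MitoNegative and 1.33, 1.26 and 1.21 in MitoPositive, with no overlap (exact permutation p = 0.1, adjusted p = 0.208). Trap1, the mitochondrial Hsp90, was at -0.03 and 0.03, and Dnaja3, a co-chaperone of Hspa9, at 0.13 and 0.14 (log2 fold changes in MitoNegative and MitoPositive).

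Among the 7 proteases, 3 rose in MitoNegative and 5 in MitoPositive, beside 20.6% and 22.3% of all genes, and none passed as lower, beside 18.3% and 19.9%; only Clpp, Afg3l2 and Htra2, all in MitoPositive, kept their call in all 15 alternatives. Clpp, the peptidase chamber of the matrix ClpXP protease, was at 19.1, 19.3 and 19.7 CPM in monoculture, 22.9, 22.7 and 21.9 in MitoNegative and 24.6, 24.6 and 23.2 in MitoPositive. The 3 groups did not overlap, with monoculture lowest and MitoPositive highest. It rose 1.16-fold in MitoNegative (log2 0.22 ± 0.06, adjusted p = 0.0146) and 1.24-fold in MitoPositive (0.32 ± 0.06, adjusted p = 0.00135). Only the fit of the 6 libraries with the block ended a Clpp call, that in MitoNegative (adjusted p = 0.0557). Its partner Clpx, the unfoldase that feeds Clpp, was at 51.9, 47.5 and 51.6 CPM in monoculture, 57.6, 55.1 and 52.3 in MitoNegative and 55.1, 53.2 and 51.4 in MitoPositive, with values of 0.13 (adjusted p = 0.111) and 0.08 (adjusted p = 0.300). The Clpp to Clpx ratio was 0.369, 0.407 and 0.382 in monoculture, 0.399, 0.411 and 0.419 in MitoNegative and 0.447, 0.462 and 0.452 in MitoPositive. Here MitoPositive stood above both other groups without overlap (exact permutation p = 0.1 for each, the lowest possible).

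Lonp1, the main matrix protease for damaged proteins, was at 75.9, 75 and 79.6 CPM in monoculture, 86.2, 91.7 and 85.1 in MitoNegative and 85.8, 93.1 and 84.7 in MitoPositive. The co-culture groups lay together, above monoculture. Its log2 fold change was 0.19 ± 0.06 in both (adjusted p = 0.0216 and 0.0187), lost in MitoNegative without monoculture B (adjusted p = 0.0613), MitoNegative C (0.0831) or monoculture C (0.0675) and in MitoPositive without monoculture B (0.0554), MitoPositive C (0.0949) or monoculture C (0.0601). Afg3l2, a subunit of the m-AAA protease that faces the matrix, was at 129, 124 and 134 CPM in monoculture, 147, 146 and 141 in MitoNegative and 152, 156 and 146 in MitoPositive. Monoculture was below both other groups in every library. It rose by 0.16 ± 0.05 (log2, adjusted p = 0.0319) and 0.23 ± 0.05 (adjusted p = 0.00455); the MitoNegative call was lost without MitoNegative B (adjusted p = 0.0744), monoculture B (0.0752), MitoNegative C (0.0818) or monoculture C (0.102) and with no count filter (0.0546).

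Spg7, the partner of Afg3l2 and the gene of a hereditary spastic paraplegia, rose in MitoPositive. It was at 51.1, 54.8 and 52.8 CPM in monoculture, 52.6, 54 and 56.5 in MitoNegative and 60.1, 59.7 and 58.2 in MitoPositive. MitoPositive stood above both other groups, which overlapped. The log2 fold change was 0.16 ± 0.05 (adjusted p = 0.0243) in MitoPositive, lost without MitoPositive B (adjusted p = 0.0785), monoculture B (0.0833) or MitoPositive C (0.0729), and 0.04 ± 0.05 (adjusted p = 0.604) in MitoNegative. Htra2, a serine protease of the intermembrane space that promotes cell death when released, was at 17.7, 19.1 and 17.7 CPM in monoculture, 19.8, 20.5 and 21.2 in MitoNegative and 22.4, 23.0 and 23.8 in MitoPositive. The groups were ordered without overlap, MitoPositive highest. Htra2 rose 1.27-fold in MitoPositive (log2 0.34 ± 0.07, adjusted p = 0.00135). In MitoNegative it was 0.17 ± 0.07 (adjusted p = 0.0547), with 0.0407 under the replicate block and 0.0438 without monoculture C. Exons of Aup1 (5821 to 8139 counts) and Loxl3 lie opposite 43.7% of its exon bases, and without known strandedness their reads cannot be told apart. Yme1l1, the i-AAA protease facing the intermembrane space, was at -0.01 and 0.06 and did not pass.

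MitoPositive against MitoNegative compares T cells with and without detectable stromal mitochondria after the same co-culture. In edgeR, fitted without the replicate letter, no member of 36 passed in either direction, and among all genes 0.0891% were higher and 0.0764% lower. At an unadjusted p below 0.05 there were 2, Htra2 and Spg7, beside 1646 of 15711 over all genes. DESeq2 called 0 members, beside 415 genes in all. The log2 fold changes ran from -0.11 for Tomm34 to 0.19 for Timm8a1, with a median of 0.06 beside -0.00038 over all genes. With 1 library left out, that median ran from 0.0070 without MitoNegative D (all genes 0.0056) to 0.0875 without MitoNegative B (all genes 0.0017). It was 0.0253 without MitoPositive C (all genes 0.0021). Leaving out a co-culture library takes away the partner of its letter, and same-letter libraries of these groups deviated together. The 95% intervals of the members lay between -0.36 (Timm10b) and 0.48 (Timm8a1), with a median half-width of 0.16. MitoPositive was the higher library of its letter in 3 of 3 letters for 15 members, in 2 for 12, in 1 for 6 and in none for 3. The same count was not made over all genes, so it is not read as a trait of the members. B cell markers moved with this comparison: their sum was 273 to 300 CPM in MitoPositive and 359 to 449 in MitoNegative, without overlap, nearly all of it Ighm, the immunoglobulin heavy chain gene (log2 fold change -0.52 ± 0.08, adjusted p = 0.0464). Cd79a, Cd79b and Ms4a1 did not pass (log2 fold changes 0.03, -0.03 and -0.22), and the part of these markers in the members' values was not tested.

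The 5 members with the smallest p were Htra2 (0.17 ± 0.07, adjusted p = 0.377), Spg7 (0.13 ± 0.05, adjusted p = 0.420), Timm21 (0.14 ± 0.07, adjusted p = 0.548), Timm17b (0.13 ± 0.07, adjusted p = 0.580) and Timm8b, at 23.0, 23.7 and 25.8 CPM in monoculture, 24.1, 24.9 and 20.8 in MitoNegative and 24.4, 28.7 and 24.9 in MitoPositive (0.16 ± 0.09, adjusted p = 0.591). For Htra2 and Spg7 every MitoPositive library was above every MitoNegative library, whereas Timm21, Timm17b and Timm8b overlapped. Same-letter libraries of these groups deviated together, with residual correlations of 0.600, 0.485 and 0.639 for B, C and D, and the fit of these 6 libraries alone with the replicate block called 7 members higher and 0 lower. Among all genes that fit, which leaves 2 residual degrees of freedom, called 9.92% higher and 8.29% lower. The 7 were Hspa9 (0.13 ± 0.03, adjusted p = 0.00992), Hspd1 (0.12 ± 0.03, adjusted p = 0.0117), Timm23 (0.14 ± 0.04, adjusted p = 0.0146), Htra2 (0.17 ± 0.05, adjusted p = 0.0156), Spg7 (0.13 ± 0.04, adjusted p = 0.0235), Timm8b (0.16 ± 0.05, adjusted p = 0.0358) and Timm21 (0.15 ± 0.05, adjusted p = 0.0418). Their sizes were close to those without the block. With the block over all 9 libraries, which leaves 4 residual degrees of freedom, no member passed.

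The wider pathway was read from a list of 37 gene identifiers for outer membrane insertion, the intermembrane space relay, presequence cleavage, membrane quality control and stress response regulators, 36 of them tested. In MitoNegative 12 were higher and 3 lower than in monoculture, and in MitoPositive 16 were higher and 1 lower; over all genes 20.6% and 18.3%, and 22.3% and 19.9%, were called in those directions. Regulators of the mitochondrial stress response showed the largest rises. Atf4, the transcription factor of the integrated stress response, was at 66.7, 77.3 and 57.7 CPM in monoculture, 179, 186 and 172 in MitoNegative and 171, 190 and 160 in MitoPositive, with log2 fold changes of 1.41 ± 0.10 (adjusted p = 1.86e-06) and 1.37 ± 0.10 (adjusted p = 1.34e-06). Ddit3, which encodes CHOP, was at 21.9, 22.3 and 20.6 CPM in monoculture, 65.7, 56.7 and 48.0 in MitoNegative and 49.1, 45.9 and 38.5 in MitoPositive. Both genes lay far above monoculture in all 6 co-culture libraries, and MitoPositive Ddit3 was the lower library in each of the 3 letters. Ddit3 rose by 1.39 ± 0.12 and 1.04 ± 0.12 (adjusted p = 8.67e-06 and 4.39e-05). Between the co-culture groups it was -0.35 ± 0.11 (adjusted p = 0.261), and with the replicate block -0.35 ± 0.07 (adjusted p = 0.0262). Cebpb rose by 0.86 ± 0.30 and 1.10 ± 0.30 (adjusted p = 0.0479 and 0.0164), with replicates that spread from 6.6 to 13.6 CPM in MitoNegative. It lost the MitoNegative call without MitoPositive B (adjusted p = 0.0646), MitoNegative B (0.136), monoculture B (0.149), MitoNegative C (0.127), MitoPositive D (0.056) or monoculture D (0.121), with DESeq2 size factors (0.0512) or with no count filter (0.145), and the MitoPositive call without monoculture B (0.0641) or D (0.0563) or with no count filter (0.061). Atf5, a regulator of the mitochondrial unfolded protein response, was at 11.4, 9.74 and 14.3 CPM in monoculture, 15.3, 15.7 and 14.3 in MitoNegative and 17.4, 18.1 and 14.3 in MitoPositive, so that the 3 D libraries were level. It rose in MitoPositive (0.49 ± 0.13, adjusted p = 0.0111) and was 0.35 ± 0.13 in MitoNegative (adjusted p = 0.0549). That value passed in 6 of 15 alternatives: total counts (0.0302), no count filter (0.0269), DESeq2 (0.0452), the 6 libraries with the block (0.0423), without MitoPositive D (0.0444) and without monoculture D (0.00585). Hsf1, the heat shock factor, did not pass, at -0.03 and -0.11.

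Of the other groups, Clpb, a disaggregase of the intermembrane space, rose furthest. It was at 16.9, 18.7 and 19.5 CPM in monoculture, 30.4, 29.7 and 29.1 in MitoNegative and 31.2, 33.4 and 30.8 in MitoPositive (log2 fold changes 0.70 ± 0.07 and 0.79 ± 0.07, adjusted p = 1.65e-05 and 4.44e-06). Pam16, a regulator of the import motor, rose by 0.50 ± 0.08 in both. The peptidases Mipep and Immp1l, which trim imported proteins, rose by 0.40 ± 0.07 and 0.35 ± 0.06 in MitoNegative and by 0.56 ± 0.07 and 0.41 ± 0.06 in MitoPositive. Pmpca, a subunit of the main processing peptidase, rose in MitoPositive (0.28 ± 0.05, adjusted p = 0.00098) and was 0.10 ± 0.05 in MitoNegative (adjusted p = 0.14). Its partner Pmpcb rose in both (0.19 ± 0.05 and 0.26 ± 0.05). Pmpcb lost its MitoNegative call without monoculture B (adjusted p = 0.0533) and in the 6 libraries with the block (0.052). Dnajc15, a co-chaperone of the motor, was at 171, 164 and 191 CPM in monoculture, 118, 106 and 105 in MitoNegative and 109, 109 and 107 in MitoPositive. It fell by 0.68 ± 0.07 and 0.70 ± 0.07 on the log2 scale, with no overlap (adjusted p = 2.06e-05 and 1.16e-05). Samm50 (-0.19 ± 0.06) and Agk (-0.18 ± 0.07), for outer membrane insertion and carrier insertion, fell in MitoNegative (adjusted p = 0.0332 and 0.0443). Of these, Samm50 lost its call without MitoNegative B (adjusted p = 0.0635), MitoPositive C (0.0508), MitoNegative C (0.0781), MitoNegative D (0.111) or monoculture D (0.118), and Agk lost it without any 1 of the 9 libraries (adjusted p = 0.0526 to 0.199). With no count filter both lost it too (adjusted p = 0.0531 for Samm50 and 0.17 for Agk). So did the 6 libraries with the block (0.108 and 0.133) and, for Agk, total counts (0.101). Of the quality control genes, Oma1 was at -0.005 and 0.14 and Phb2 at -0.02 and 0.03, none past the threshold. Against MitoNegative no pathway gene passed in MitoPositive (8 at an unadjusted p below 0.05, beside 1646 of 15711 over all genes), and the fit of the 6 libraries with the block called 9 higher and 1 lower, beside 9.92% and 8.29% of all genes.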

How the data were processed

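RNA from 9 libraries, 3 a group, was analysed. Per the submitters' processing notes, bcl2fastq, cutadapt, STAR 2.7, featureCounts and DESeq2 were used with GRCm38; the release of the annotation and strandedness are not given in the sources used here. The deposited table holds raw counts per gene. Of 55520 entries, 99 spike-in rows with 0 counts were left out. Genes were kept by filterByExpr (minimum count 10, minimum total 15), scaled by TMM and fitted over all 9 libraries by group with edgeR 4.0.16 in R 4.3.3 (robust quasi-likelihood, 6 residual degrees of freedom). P-values were adjusted by Benjamini-Hochberg over 15711 genes, with a threshold of 0.05, and the SE is the log2 fold change over the root of F. Fits were tested on simulated data. CPM uses TMM library sizes, and per-kb values divide by the deposited exon length. Exon overlaps came from GENCODE M21.

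Members and lists were chosen with earlier results of these data known. Values in every library were given for passing members, up to 8 a direction in MitoNegative and 4 more in MitoPositive against monoculture, for the 5 smallest p where none passed, and for 12 set genes. Pathway genes were named by the largest changes, up to 4 a direction, with Atf4, Atf5, Ddit3, Oma1, Phb2 and Pmpca; others were named after their values were seen. Alternatives were DESeq2 1.42.0 size factors and test, total counts, no count filter, the replicate letter as a block, the 6 compared libraries alone with it, and each library left out. Residuals of same-letter libraries correlated at 0.600, 0.485 and 0.639 (B, C, D) between MitoPositive and MitoNegative. Between MitoNegative and monoculture they correlated at 0.328, 0.203 and 0.126. These values were above the threshold of 0.1 for letters to pair, while between MitoPositive and monoculture C was at 0.0947. The main fit left the letter out in every comparison, and the block entered only as an alternative. Where 1 library was left out, its group had 2, and the spread was pooled over groups.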

Additional observations from a re-analysis of the deposited data

How the results depend on the processing

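In MitoPositive against MitoNegative, 26 genes passed; the number was 15 with DESeq2 size factors, 14 with total counts, 171 with no count filter, 415 under DESeq2, 367 with the replicate block and 2810 in the 6 libraries with the replicate block, and 1 to 120 when each library was left out. Of these calls 53.8% were higher, beside 66.7% with DESeq2 size factors and 71.4% with total counts. The 6 libraries with the replicate block called 7 members higher, and 9 pathway genes higher and 1 lower; the block over 9 libraries called 1 pathway gene lower. Against monoculture, MitoNegative had 3 members higher and 2 lower and 1 pathway gene lower in the 6 libraries with the replicate block, and 1 pathway gene lower with no count filter. Leaving out each library gave 2 to 8 members higher and 2 to 5 lower and 1 to 2 pathway genes lower in MitoNegative, and 7 to 13 members higher and 1 to 4 lower in MitoPositive. Among all genes these fits called 4921 to 6037 in MitoNegative and 5484 to 6695 in MitoPositive. Signs turned for genes near 0. Hspe1 in MitoPositive against MitoNegative was 0.0110 with total counts and 0.00836 with no count filter. Oma1 in MitoNegative against monoculture was 0.0120, 0.00270 and, in the 6 libraries with the replicate block, 0.000244. With each library left out, log2 fold changes that turned ran from -0.0484 to 0.036 for Hspe1, from -0.0408 to 0.0401 for Lonp1, from -0.0257 to 0.0449 for Tomm20, from -0.0476 to 0.0827 for Tomm40, from -0.0538 to 0.0945 for Tomm70a, from -0.0239 to 0.128 for Timm17a in MitoPositive against MitoNegative; from -0.0308 to 0.139 for Hspe1, from -0.0568 to 0.122 for Phb2 in MitoPositive against monoculture; from -0.0105 to 0.101 for Hspd1, from -0.0253 to 0.143 for Hspe1, from -0.0123 to 0.0133 for Oma1, from -0.11 to 0.0674 for Phb2, from -0.0969 to 0.0214 for Timm8b in MitoNegative against monoculture. The cause was not tested. Of the 14 members called in MitoPositive against monoculture 7 kept the call in all 15 alternatives, and of the 11 called in MitoNegative 2 did; the block over 9 libraries changed no other printed call in the comparisons whose letters pair than those given beside the results. Under no scaling did the median of all genes exceed 0.0373 on the log2 scale. That value was with total counts in MitoPositive against monoculture, where the main fit gave 0.0034. Depth limits Tomm6, Timm8a2 and Tomm20l, and 3 libraries a group limit every comparison.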
